A study of Mus musculus with 12 samples.

Results

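The miR-29 family was followed in liver small RNA of adult male mice, where mothers and sons had each been fed a control or an obesogenic diet. Every row of the deposited table that names an arm of miR-29a, miR-29b or miR-29c was taken, whatever its value, which gave 6 of 386 mature miRNA rows: miR-29a-3p, miR-29b-3p, miR-29c-3p, miR-29a-5p, miR-29b-1-5p and miR-29c-5p. MicroRNAs are short RNAs, cut from hairpin precursors, that guide Argonaute proteins to complementary sites in messenger RNAs, mostly through the seed at bases 2 to 8. The 3p arms of miR-29 are the main products. They are known for repressing collagens, elastin and other matrix genes, and in liver their loss from stellate cells accompanies fibrosis. In hepatocytes raised miR-29 has been linked to dampened insulin signalling, and the family also targets DNA methyltransferases.

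The mature sequences, taken from RefSeq (GRCm38.p6), are shown because the results turn on how alike the members are. All 6 rows matched RefSeq by name. The 3 main arms come first, 5′ to 3′, with the seed in capitals.
miR-29a-3p: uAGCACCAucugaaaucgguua
miR-29c-3p: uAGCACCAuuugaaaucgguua
miR-29b-3p: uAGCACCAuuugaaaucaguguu
miR-29a-5p: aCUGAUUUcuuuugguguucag
miR-29c-5p: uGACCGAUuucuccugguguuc
miR-29b-1-5p: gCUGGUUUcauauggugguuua
The main arms share the seed AGCACCA, which 3 of 1679 mature mouse names in the RefSeq table carry (0.179%), all of them miR-29. The 5p arms have 3 different seeds. Counting from 1 at the 5′ end, miR-29a-3p and miR-29c-3p differ by 1 substitution over 22 bases (C10U, the miR-29a-3p base first). From miR-29c-3p to miR-29b-3p there are 3 substitutions, G18A, U21G and A22U, and miR-29b-3p is 1 base longer. Its last 6 bases, at positions 18 to 23, read AGUGUU, a motif known from human miR-29b as a signal for import into the nucleus. On the strand of the miRNA, 12 of the 1679 names hold these letters (0.715%).

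The family comes from 4 hairpins at a pair of loci (GRCm38.p6). Mir29a, at chr6:31062660-31062747, and Mir29b-1, at chr6:31063023-31063093, lie 275 bases apart on the minus strand, and Mir29b-1 overlaps the end of a lincRNA exon, Gm27019. Mir29b-2, at chr1:195037040-195037120, and Mir29c, at chr1:195037547-195037634, lie 426 bases apart on the plus strand. Both lie in an exon of a retained-intron transcript of the noncoding gene A330023F24Rik and, on the opposite strand, in a UTR exon of Cd46. The row miR-29b-3p has the sequence made by both Mir29b hairpins, so it sums the loci. The 5p arm of Mir29b-2 was not analysed here.

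Small RNA was sequenced from 12 wild type C57BL/6 males at postnatal day 84, with 3 libraries in each of 4 groups. CC were control-fed sons of control-fed mothers, CO obesogenic-fed sons of control-fed mothers, OC control-fed sons of obesogenic-fed mothers, and OO had both obesogenic diets. The control diet was the chow RM1, and the obesogenic diet was energy-rich and came with sweetened condensed milk. The labels speak of 35 mothers of the C57BL/6J strain, which stayed on their diet until weaning. They also give litters of 6 from day 3 and random weaning of sons onto either diet on day 21. They do not tie a library to a mother or litter, so the spread that p-values rest on is that between libraries and may be partly technical. OO replicate 3 and OC replicate 2 have titles with the same stem, unlike any other pair. Its meaning is not given, and libraries of brothers would not be independent. The letters that open the sample titles differ wholly between the maternal diets, and a batch behind them cannot be told apart from maternal diet.

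Depth, as recovered from the steps of the values, was 5.45 to 22.2 M reads a library. CO replicate 3 was the shallowest library and stood apart from the others before any miR-29 value is considered. Over all rows, the median log2 deviation from the 12-library mean was -0.20 in it. The hepatocyte miRNAs miR-122, miR-192, miR-194, miR-148a and miR-101b, all 6 listed rows measured, summed to 41.1% of its CPM and to 34.1% to 38.0% in the other 11 libraries. That sum was mostly miR-192-5p (29.2% against 22.1% to 25.3%). Against the mean of the other libraries miR-122-5p deviated by 0.34 on the log2 scale and miR-192-5p by 0.29, miR-194-5p by -0.92, and the other 3 rows by -0.12 to 0.01. Both endothelial miR-126 rows summed to 1.54% against 2.09% to 2.78%, and the 6 leukocyte rows, of which 5 were lower, to 0.225% against 0.280% to 0.454%. The 7 stellate and mesenchymal rows, at 4.58%, were within the range of the others (3.13% to 4.79%), but this sum was mostly miR-143-3p, which deviated by 0.36, while the other 6 rows deviated by -0.73 to -0.09. Results that rest on this library are given with and without it. In bulk tissue, fewer cells of a type and less RNA per cell cannot be told apart.

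miR-29a-3p made up most of the family. Levels are in CPM (reads scaled to a common library total). Members of about equal length can be compared directly, apart from ligation bias and any reads counted in more than 1 row. The mean of miR-29a-3p over the 12 libraries was 4341 CPM, rank 29 of the 386 rows, which was 83.7% of the family sum. miR-29c-3p followed at 725.4 CPM (rank 61, 14.0% of the family) and miR-29b-3p at 96.2 CPM (rank 142, 1.85%). The 3p arms together made 99.5% of the family. The 5p arms, the passenger strands, were at 14.1 CPM for miR-29c-5p, 7.91 CPM for miR-29a-5p and 2.33 CPM for miR-29b-1-5p.

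**Figure D1:**
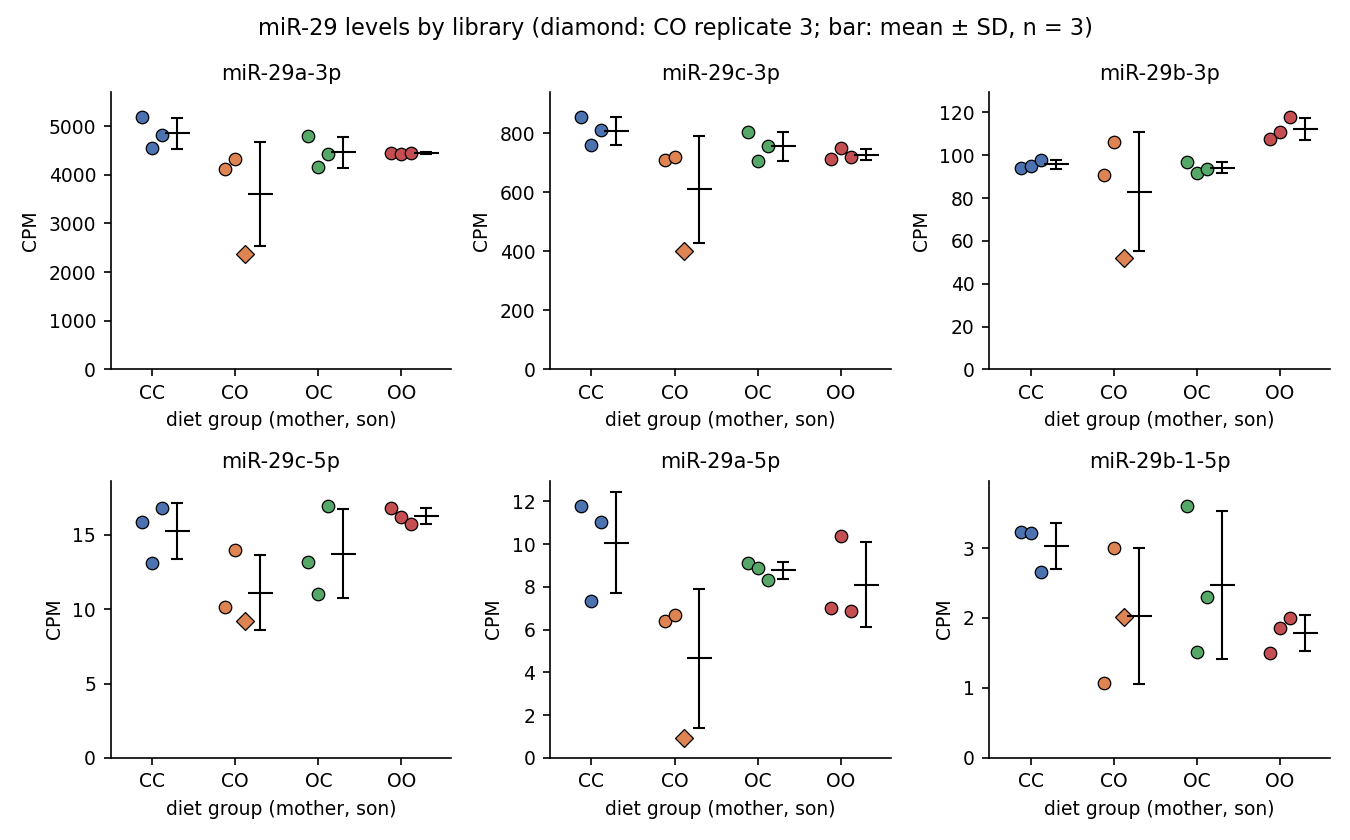
Level of each miR-29 row in CPM (y axes start at 0) in the 12 libraries, by diet group, with the mean ± SD of 3 libraries beside the points. The diamond marks CO replicate 3, which is far below every other library for the 3p arms and for miR-29a-5p, while the other CO libraries lie close to the OC and OO points for miR-29a-3p.

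miR-29a-3p measured 5182, 4552 and 4822 CPM in the CC libraries and 4118, 4313 and 2366 CPM in CO. It measured 4801, 4167 and 4431 CPM in OC and 4454, 4429 and 4452 CPM in OO. Apart from CO replicate 3, at 2366 CPM, all values lay between 4118 and 5182 CPM. The group means ran from CC (4852 ± 316 CPM, SD, n = 3) through OC (4466 ± 319) and OO (4445 ± 13.7) to CO (3599 ± 1072). OC and OO, neighbours in that order, differed by less than their spread, and the mean of CO without replicate 3 was 4216 CPM.

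miR-29c-3p followed the same order. It measured 854, 759 and 810 CPM in CC and 709, 719 and 401 CPM in CO, and no CO library reached the lowest CC library. In OC it measured 806, 706 and 756 CPM and in OO 713, 750.0 and 720.0 CPM, so that these groups overlapped. The means were 808 ± 47.6 CPM (SD, n = 3) in CC, 756 ± 49.6 in OC, 728 ± 19.6 in OO and 610 ± 181 in CO, the last being 714 CPM without replicate 3. CO without that library and OO were thus neighbours within their spread.

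miR-29b-3p, the nuclear-motif member, had another order. It measured 94.2, 94.9 and 97.9 CPM in CC, 90.6, 106 and 52.1 CPM in CO, 96.9, 91.9 and 93.4 CPM in OC and 108, 111 and 118 CPM in OO. All 3 OO libraries lay above every other library, although CO replicate 2, at 106 CPM, came within 2 CPM of the lowest of them. How many of all rows did likewise was not counted. Against single groups, 10.4% of all rows were higher in every OO than in every OC library and 16.3% than in every CO library. OO had the highest mean (112 ± 5.17 CPM, SD, n = 3), CC (95.7 ± 1.99) and OC (94.1 ± 2.60) differed by less than their spread, and CO was at 83.0 ± 27.9 CPM, or 98.5 CPM without replicate 3.

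The 5p arms rest on few reads. miR-29a-5p measured 11.8, 7.36 and 11.05 CPM in CC, 6.41, 6.68 and 0.918 CPM in CO, 9.10, 8.90 and 8.33 CPM in OC and 7.03, 10.4 and 6.88 CPM in OO. Its value in CO replicate 3 came from 5 reads (95% exact Poisson interval 0.298 to 2.14 CPM, counting error only), and that interval lies below every other library. miR-29b-1-5p stood between 1.07 and 3.61 CPM in all libraries, on 11 to 80 reads each, and its groups CO, OC and OO overlapped. miR-29c-5p measured 15.9, 13.1 and 16.8 CPM in CC, 10.2, 14.0 and 9.18 CPM in CO, 13.2, 11.05 and 17.0 CPM in OC and 16.8, 16.2 and 15.8 CPM in OO, and its CO libraries were below all 3 OO libraries but not below all CC libraries.

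In no diet comparison did a miR-29 row pass the test. The test was limma on log2(CPM + 1) over all 386 rows, with a Benjamini-Hochberg adjusted p under 0.05 counted as passed. An unadjusted p under 0.05 was found for 4 members in CO minus CC, where 63 of all rows (16.3%) had one, for 2 in OO minus CO (12.2% of all rows) and for 1 in the interaction (3.89%). It was found for 0 members for the sons' diet (57 of all rows, 14.8%), in OO minus OC (7.25%), for maternal diet (6.99%), in OC minus CC (1.04%) and in OO minus CC (12.2%), and limma-voom on the recovered reads also passed 0 members. For the sons' diet (CO and OO minus CC and OC), 0.777% of all rows passed and 0 of the 6 members did. miR-29a-3p averaged 4022 ± 822 CPM (SD, n = 6) with the obesogenic diet and 4659 ± 354 CPM with the control diet, a log2 difference of -0.24 (SE 0.13, 95% interval -0.53 to 0.05, limma adjusted p = 0.417). miR-29c-3p differed by -0.25 (SE 0.13, limma adjusted p = 0.417), and miR-29b-3p by -0.01 (SE 0.15, interval -0.33 to 0.31, limma adjusted p = 0.983). The median difference of the 6 members was -0.25 and that of all rows -0.02. All 6 members had a negative difference, as did 54.7% of all rows. Without CO replicate 3, the difference was -0.10 for miR-29a-3p (interval -0.22 to 0.02), -0.11 for miR-29c-3p and 0.14 for miR-29b-3p (interval -0.01 to 0.29), each with a limma adjusted p of at least 0.297.

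The sons' diet was also compared within each maternal diet. After control mothers (CO minus CC), 0.777% of rows passed and 0 members. The log2 differences were -0.48 for miR-29a-3p (SE 0.19, limma adjusted p = 0.223), -0.45 for miR-29c-3p (adjusted p = 0.255) and -1.19 for miR-29a-5p (SE 0.43, adjusted p = 0.211). These 3 members were lower in every CO library than in every CC library, and 16.3% of all rows were likewise lower with no overlap. miR-29c-5p differed by -0.44 (SE 0.19, limma adjusted p = 0.268), with overlap. The 2 endothelial rows summed to 2.41% to 2.68% of CPM in CC and 1.54% to 2.27% in CO. The hepatocyte rows summed to 35.8% to 36.4% in CC and 37.2% to 41.1% in CO. Both sums were without overlap, as were 22% of all single rows in either direction. Of the 6 hepatocyte rows 3 were higher and 3 lower in CO, with a median log2 difference of -0.01. The part of these rows in the miR-29 difference was not tested. CO replicate 3 set the size. Without it the differences were -0.20 for miR-29a-3p, -0.18 for miR-29c-3p and -0.53 for miR-29a-5p, and that of miR-29b-3p went from -0.26 to 0.04. With log2 depth as a covariate miR-29a-5p passed (log2 difference -1.27, limma adjusted p = 0.0201), as the only member to pass under any alternative. In that setting 10 of all rows passed, beside 3 without the covariate.

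After obesogenic mothers (OO minus OC), 0.518% of rows passed and 0 members. miR-29a-3p differed by -0.00 (95% interval -0.41 to 0.40) and miR-29c-3p by -0.05 on the log2 scale. miR-29b-3p, by contrast, was higher in every OO than in every OC library, at 0.25 (interval -0.21 to 0.70, limma adjusted p = 0.905), and 10.4% of all rows were likewise higher with no overlap. Whether the sons' diet difference depended on the maternal diet was tested as an interaction. There 0% of rows passed in limma (15 at an unadjusted p under 0.05) and 0 members. miR-29c-5p had the largest support, at 0.69 (interval 0.10 to 1.27, unadjusted p rank 6 of 386, limma adjusted p = 0.773), and 0.57 without CO replicate 3.

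**Figure D2:**
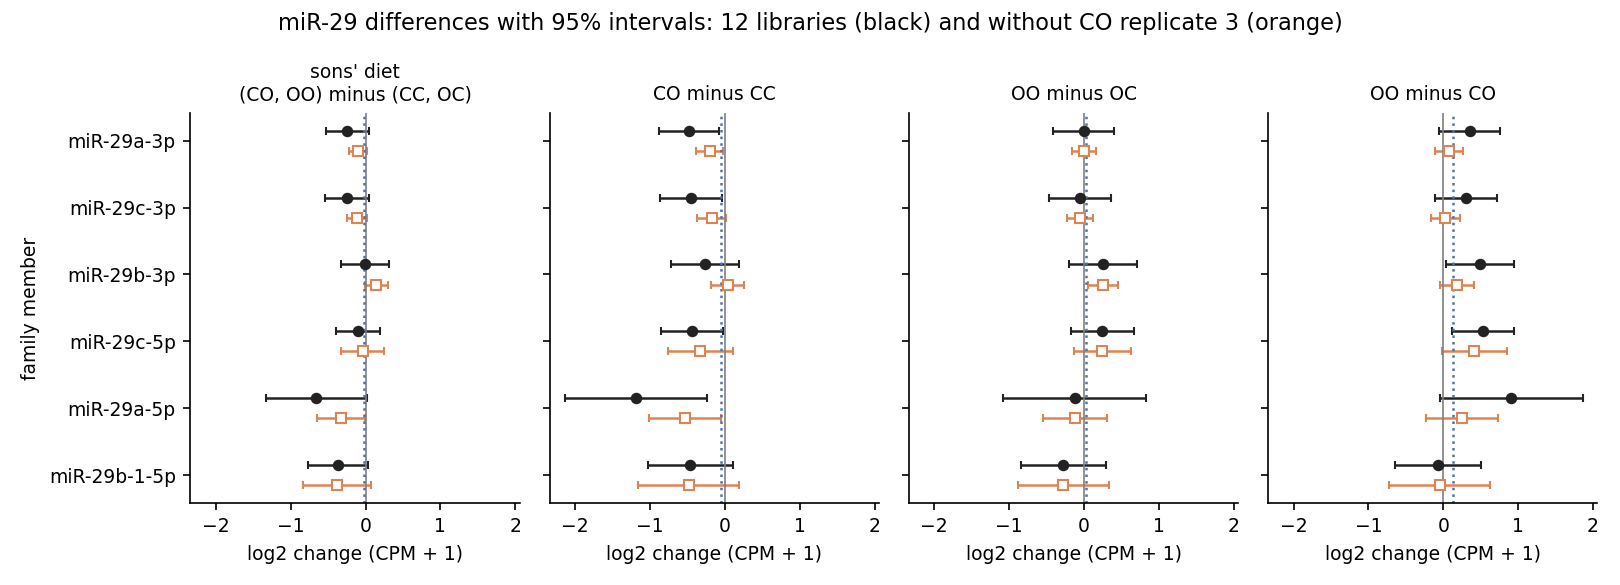
Log2 differences of log2(CPM + 1) with 95% intervals for the 6 miR-29 rows in 4 comparisons, from all 12 libraries (black circles) and without CO replicate 3 (orange squares). The dotted line is the median of all rows over 12 libraries. In CO minus CC the black intervals of miR-29a-3p, miR-29c-3p, miR-29a-5p and miR-29c-5p lie below 0. Leaving out that library moves their points to -0.20, -0.18, -0.53 and -0.32. The orange intervals of miR-29a-3p (-0.38 to -0.02) and miR-29a-5p (-1.01 to -0.05) stay below 0. Those of miR-29c-3p (-0.37 to 0.02) and miR-29c-5p (-0.76 to 0.11) include 0.

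For maternal diet (OC and OO minus CC and CO) 0% of rows passed in limma (27 at an unadjusted p under 0.05) and 0 members, and the differences of the members ran from -0.16 for miR-29b-1-5p to 0.38 for miR-29a-5p. Mean depth was 10.6 M reads for control and 16.7 M for obesogenic mothers, so depth and maternal diet are hard to tell apart. With log2 depth as a covariate the differences were -0.145 for miR-29a-3p, -0.0137 for miR-29b-3p, -0.166 for miR-29c-3p and -0.339 for miR-29a-5p. The differences that follow are again without this covariate. In control-fed sons alone (OC minus CC) 0% of rows passed (4 unadjusted) and 0 members, and all 6 differences were between -0.26 and -0.02, beside a median of 0.03 over all rows. In obesogenic-fed sons (OO minus CO) 0% of rows passed (47 unadjusted) and 0 members. miR-29a-3p, miR-29b-3p, miR-29a-5p and miR-29c-5p were higher in every OO than in every CO library, as were 16.3% of all rows. Their log2 differences were 0.35, 0.49, 0.91 and 0.53 (limma adjusted p 0.307 to 0.376) and 0.08, 0.19, 0.25 and 0.42 without CO replicate 3. The median of all rows in that comparison was 0.13 at the deposited scaling and -0.01 with TMM scaling. Relative to the TMM median, the same 4 differences were 0.20, 0.34, 0.81 and 0.39.

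With both diets (OO minus CC) 0.259% of rows passed and 0 members. Here the main arms parted. miR-29a-3p and miR-29c-3p were lower in every OO than in every CC library (log2 differences -0.12 and -0.15), as was miR-29b-1-5p (-0.53, limma adjusted p = 0.413), whereas miR-29b-3p was higher in every OO library (0.22, limma adjusted p = 0.770). Groups that do not overlap in either direction made up 22% of all rows in this comparison. CO replicate 3 is in neither group, but it enters the shared spread of the fit. Without it miR-29b-3p, at the same difference of 0.22, had a limma adjusted p of 0.223.

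Ratios between members of 1 library do not depend on how libraries are scaled. miR-29b-3p stood at 1.82%, 2.08% and 2.03% of miR-29a-3p in CC and at 2.20%, 2.46% and 2.20% in CO. In OC it stood at 2.02%, 2.20% and 2.11%, and in OO at 2.42%, 2.50% and 2.64%. In both maternal groups every obesogenic-fed son had a higher share than every control-fed son, and CO replicate 3, at 2.20%, was close to CO replicate 1. How many ratios of other rows did likewise was not counted. Of single rows, 22% did not overlap in either direction between CO and CC, and 15.5% between OO and OC. The log2 ratio rose by 0.23, from -5.61 ± 0.09 in control-fed to -5.38 ± 0.11 in obesogenic-fed sons (SD, n = 6 each, a 1.18-fold difference), in a two-sided exact permutation test (p = 0.00649, adjusted p = 0.0390 over 12 ratio tests).

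The ratio of miR-29b-3p to miR-29c-3p gave the same picture. It stood at 11.02%, 12.5% and 12.1% in CC, 12.8%, 14.8% and 13.0% in CO, 12.0%, 13.0% and 12.3% in OC, and 15.1%, 14.8% and 16.4% in OO. The log2 ratio rose by 0.25, from -3.04 ± 0.08 in control-fed to -2.79 ± 0.14 in obesogenic-fed sons (SD, n = 6 each, two-sided exact permutation p = 0.00649, adjusted p = 0.0390). Both ratios share their numerator and denominators that moved together, so they are not separate support for each other. Their p-values were also equal, and in the adjustment each counted toward the pass of the other. Neither would have passed as the only low p-value among the 12 tests. After control mothers the difference was 0.21 for the ratio to miR-29a-3p and 0.19 for that to miR-29c-3p, and after obesogenic mothers 0.26 and 0.31. Each of these 4 values had the smallest p that 3 against 3 libraries allow in an exact permutation test (0.1). How many ratios of other rows reach it was not counted.

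The size of this shift was steadier than its call. Leaving out 1 library at a time, the difference in the ratio to miR-29a-3p stayed between 0.20 and 0.26 and that to miR-29c-3p between 0.21 and 0.28. The adjusted exact permutation p ran from 0.026 to 0.0909, and neither ratio passed in 8 of 12 such settings: without CC replicate 1, 2 or 3, CO replicate 2, OC replicate 1 or 3, or OO replicate 1 or 3. Without CO replicate 3 both passed (0.26 and 0.28, adjusted p = 0.026). Depth overlapped between the sons' diets, at 7.47 to 22.2 M reads in control-fed and 5.45 to 21.5 M in obesogenic-fed sons. The leukocyte rows summed to 0.280% to 0.349% in CC, 0.225% to 0.299% in CO, 0.293% to 0.454% in OC and 0.301% to 0.335% in OO, and their part in the ratio was not tested. All control-fed sons, but only OO replicate 2 among the obesogenic-fed, have titles with the closing letter A, whose meaning the labels do not give. The letter can thus hardly be told apart from the sons' diet, and its part in the ratio was not tested.

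**Figure D3:**
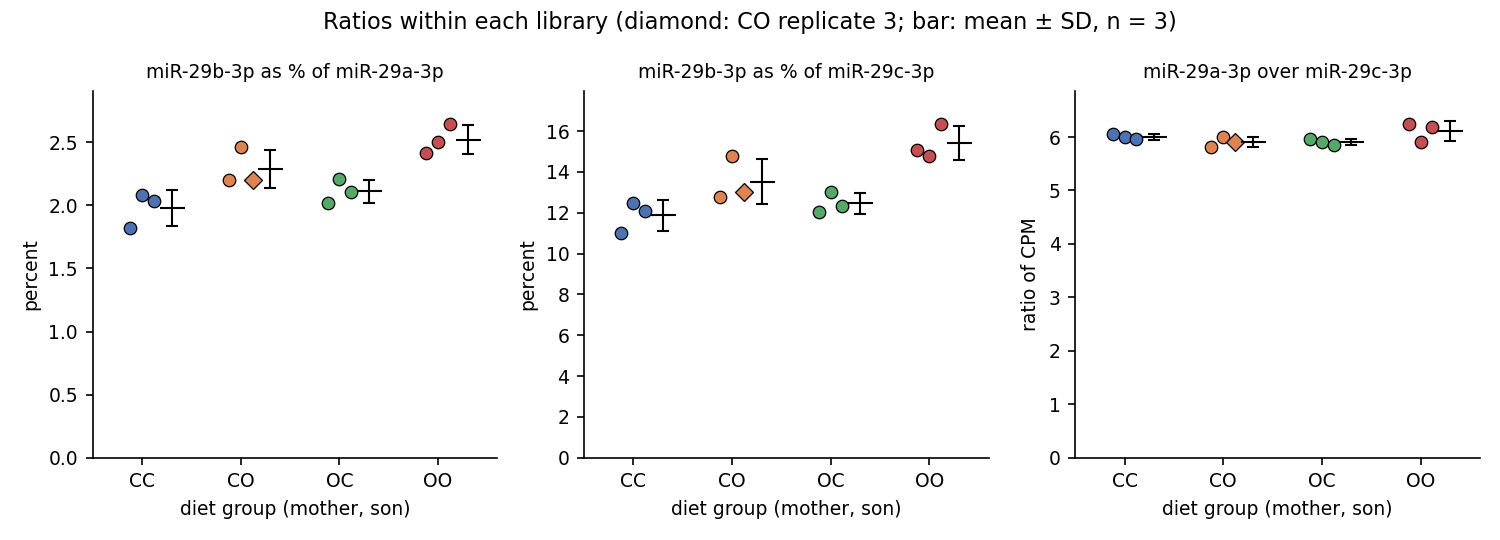
Ratios of the main arms within each library, with the y axes starting at 0 and the mean ± SD of 3 libraries beside the points. miR-29b-3p as a percent of miR-29a-3p and of miR-29c-3p is higher in CO than in CC and higher in OO than in OC with no overlap, while miR-29a-3p over miR-29c-3p lies between 5.81 and 6.25 in all 12 libraries. How many ratios of other rows show no overlap was not counted.

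The other ratios did not pass (adjusted exact permutation p 0.216 to 0.519 over the same 12 tests). miR-29a-3p over miR-29c-3p was 5.98 ± 0.13 (SD, n = 12), from 5.81 to 6.25, with a log2 difference of 0.01 between the sons' diets. These arms differ by 1 base and come from different chromosomes. The rule for reads that fit both is not given in the sources used here. Column totals stood 0.866% to 1.17% above the scaling total. The rows miR-374b-5p and miR-374c-5p both averaged 25.5 CPM, with the same log2 deviation in CO replicate 3 (-0.85). Some reads were thus probably counted in more than 1 row. How far reads of miR-29a-3p were also counted for miR-29c-3p, or the reverse, was not tested. The passenger strand miR-29a-5p was 0.154% to 0.235% of miR-29a-3p in 11 libraries and 0.0388% in CO replicate 3. For maternal diet, the ratio of miR-29b-3p to miR-29a-3p differed by 0.12 on the log2 scale (two-sided exact permutation p = 0.208, adjusted p = 0.356).

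Across the 12 libraries miR-29a-3p and miR-29c-3p moved together, on log2(CPM + 1), where all rows of a library share its depth scaling. Pearson's r was 0.994 (permutation p adjusted over 6 pairs = 6e-05, from the smallest value that 100000 resamples can give) and Spearman's rho 0.902 (adjusted p = 0.00102). The relation held without CO replicate 3 (r = 0.945), without the 2 libraries farthest from the median (r = 0.901) and within control (r = 0.999) and obesogenic mothers (r = 0.839), with 6 libraries each. The control-mother libraries include CO replicate 3, so that r rests largely on it.

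miR-29b-3p did not share this pattern once CO replicate 3 was left out. Its r with miR-29a-3p was 0.858 over 12 libraries (permutation p adjusted over 6 pairs = 0.0541, rho 0.406), -0.05 without that library and 0.145 without the 2 farthest. With miR-29c-3p it was 0.832 (adjusted permutation p = 0.0658, rho 0.308), -0.27 without that library and -0.17 without the 2 farthest. These relations rest on 1 library. miR-29c-5p passed with each main arm by Pearson (r 0.669 to 0.719, adjusted permutation p 0.00668 to 0.0143). By Spearman it did not (rho 0.510 to 0.566, adjusted p 0.142), and without CO replicate 3 its r was 0.386 to 0.530, with no pass.

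**Figure D4:**
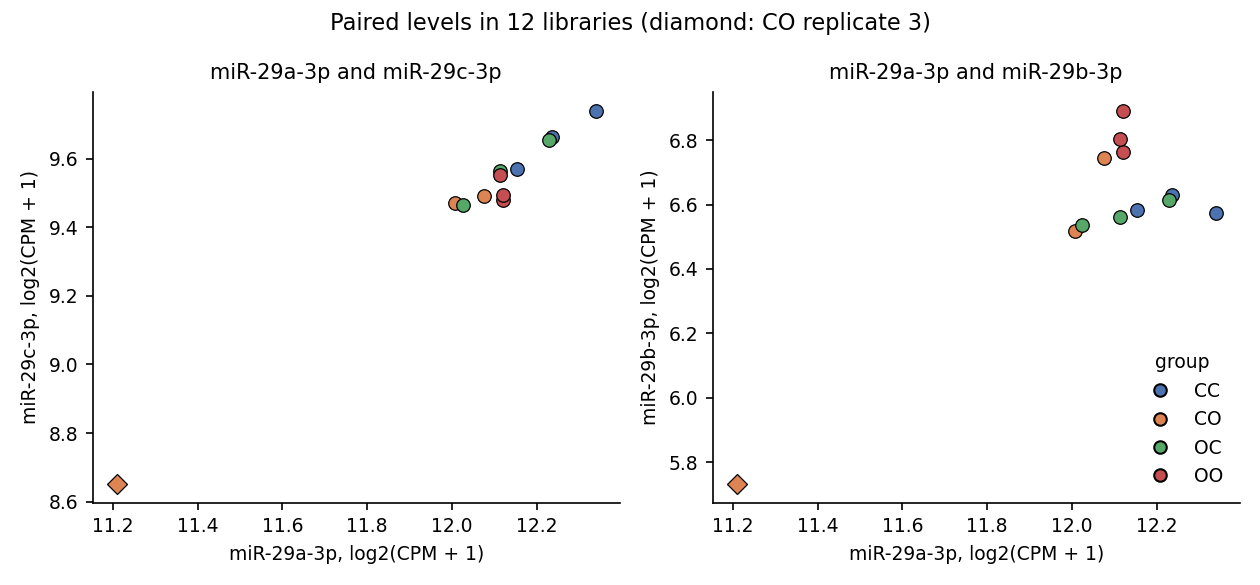
Level of miR-29a-3p against miR-29c-3p (left) and miR-29b-3p (right) in 12 libraries, both on log2(CPM + 1), coloured by diet group. Left, all libraries lie along 1 line (r = 0.945 without the diamond, CO replicate 3); right, the libraries other than the diamond show no common trend (r = -0.05) and OO lies highest.

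In CO replicate 3 the main arms and miR-29a-5p were among the rows farthest below the other libraries. The log2 deviation from the mean of the other 11 was -0.93 for miR-29a-3p, -0.92 for miR-29b-3p and -0.91 for miR-29c-3p, beside a median of -0.22 over all rows, and 32 to 35 of the 386 rows deviated further down than each of these. miR-29a-5p, at -2.29, deviated furthest of all rows. miR-29c-5p deviated by -0.59, with 87 rows below it. miR-29b-1-5p (-0.11) lay above the median of all rows and was at 0.10 with TMM scaling. Among the 52 rows with a mean over 1000 CPM, miR-29a-3p had the most negative deviation, followed by miR-194-5p (-0.92), a hepatocyte miRNA, and miR-30c-5p (-0.83). With TMM scaling the main arms still deviated by -0.63, -0.63 and -0.61. The family sum was 0.280% of this library's CPM and 0.489% to 0.609% in the other 11. The part of depth and of cell makeup in this was not tested.

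**Figure D5:**
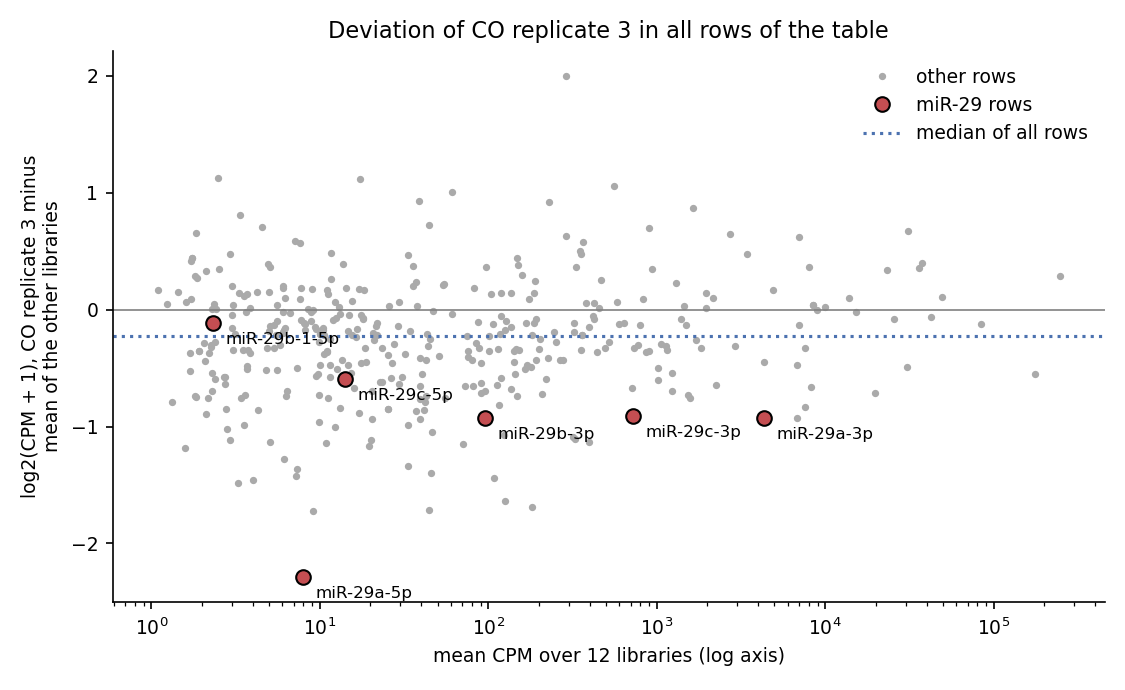
Deviation of CO replicate 3 from the mean of the other 11 libraries on log2(CPM + 1), against mean CPM on a log axis, for all 386 rows with the 6 miR-29 rows in red. The 3p arms lie near -0.9 at every level of abundance and miR-29a-5p lies lowest of all rows, whereas the dotted median of all rows is at -0.22.

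Among 257 rows outside the family with a mean of at least 10 CPM, the 5 most like miR-29a-3p over 12 libraries were miR-27a-3p (r = 0.978), miR-30b-5p (0.972), miR-194-5p (0.968), miR-872-5p (0.954) and miR-30c-5p (0.946). For miR-29c-3p they were miR-30b-5p (0.985), miR-27a-3p (0.977), miR-194-5p (0.961), miR-872-5p (0.958) and miR-872-3p (0.955). All rows of a library share its depth scaling, and much of this likeness came from CO replicate 3. Without it, r with miR-29a-3p was 0.827 for miR-27a-3p and 0.551 for miR-872-5p. Over the 11 libraries the most like row was miR-26a-5p for miR-29a-3p (r = 0.873) and miR-24-2-5p for miR-29c-3p (r = 0.912). These are descriptions, with no test.

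Other miRNAs of the processes miR-29 is known for were read from lists without miR-29. The 23 miRNAs linked to fibrosis and stellate cells were all measured, in 22 rows, as miR-199a-3p and miR-199b-3p share 1. For the sons' diet 0 of these rows rose and 0 fell in limma, where 0.777% of all rows passed. An unadjusted limma p under 0.05 was found for 4 of them, beside 14.8% of all rows. Of the 22 rows, 12 were higher and 10 lower, with a median log2 difference of 0.06. The most abundant of them, miR-21a-5p, known from fibrotic tissue, differed by 0.04 (adjusted p = 0.930), and miR-378a-3p, held in an intron of a metabolic coactivator gene, by 0.30 (adjusted p = 0.0765). Of 20 miRNAs linked to insulin and glucose, all measured, 0 rose and 0 fell (5 unadjusted, beside the same 14.8% of all rows; 11 higher, 9 lower, median 0.04). The abundant miR-143-3p, a smooth muscle and stellate cell miRNA, differed by 0.01 and miR-26a-5p, linked to insulin sensitivity, by -0.25 (adjusted p = 0.190). In the other 7 contrasts 0 members of either list passed, where 0% to 0.777% of all rows did.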

How the data were processed

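Small RNA from 12 livers, extracted with miRNeasy and made into TruSeq libraries per the labels' protocols, was deposited by the authors as 1 table of CPM, that is reads of each of 386 mature miRNAs over a library total. The submitters' processing notes list Bowtie 1.2.3. Which build and miRNA reference were used, and how reads fitting several miRNAs were counted, is not given in the sources used here. Column totals stood 0.866% to 1.17% above the scaling total, so some reads were probably counted in more than 1 row. In each column 100% of values were whole multiples of 1 step (tolerance 0.001 reads), which gave depths of 5.45 to 22.2 M reads, median 13.2 M.

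From the table, limma 3.58.1 in R 4.3.3 was fitted to log2(CPM + 1) of all rows, with the trend option, 4 group means and 8 contrasts. P-values were two-sided and Benjamini-Hochberg adjusted within each contrast, with 0.05 as the threshold. A log2 difference on this scale understates that of low rows. Ratios were tested by exact permutation of 6 against 6 libraries (924 arrangements, smallest p 0.0021645), and correlations by 100000 resamples. The limma step was tested on simulated data. Groups came from the diet labels, and replicate numbers follow accession order. Alternatives were the pseudocount, a filter at a mean of 10 CPM, TMM and median-of-ratios scaling, depth as a covariate, quality weights, the libraries of 1 comparison alone, and each library left out. An alternative chosen after seeing the data was limma-voom on the recovered reads. No count model was fitted.

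Named rows were all miR-29 rows, the 4 most abundant of each list and those that passed, and the 5 rows most like miR-29a-3p and miR-29c-3p. Members and lists were chosen with earlier results of these data known. Marker lists of 7 cell types were summed per library. Of them, the biliary (6 rows for 6 names), erythroid (4 rows for 5 names) and muscle (2 rows for 3 names) lists stood at 0.0433% to 0.0950%, 0.283% to 0.891% and 0.00210% to 0.118% of CPM over the libraries. For the sons' diet 0 of their rows passed.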

Additional observations from a re-analysis of the deposited data

Results flagged for a closer look

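A library was marked where its gap to the nearest of 6 libraries was large for the range of those 6 (Dixon's 95% value), which chance alone does in about 1 in 20 groups. Of 48 groups read in this way, 7 were marked, 6 of them by CO replicate 3. Among obesogenic-fed sons it was far below the others for miR-29a-3p (2370 CPM) and miR-29c-3p (401 CPM), and among sons of control mothers for miR-29b-3p (52.1 CPM) and miR-29c-3p (401 CPM). In both settings its log2 ratio of miR-29a-5p to miR-29a-3p (-11.3, from 5 reads of miR-29a-5p) stood apart. CO replicate 1 had the lowest log2 ratio of miR-29b-1-5p to miR-29b-3p among sons of control mothers (-6.41).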

How the results depend on the processing

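Of the members' log2 differences under the alternatives, 944 kept their direction and side of the threshold, 29 changed sign and 1 newly passed. The last was miR-29a-5p in CO minus CC with log2 depth as a covariate, so 1 member passed there in place of 0, beside 10 of all rows in place of 3. For miR-29b-3p and the sons' diet the difference was 0.0453 with TMM, 0.0133 with median-of-ratios scaling, 0.0525 with depth, 0.0917 with quality weights and 0.00643 with limma-voom, and -0.11 to 0.143 with 1 library left out. With depth as a covariate, maternal diet gave -0.145 for miR-29a-3p, -0.0137 for miR-29b-3p, -0.166 for miR-29c-3p and -0.339 for miR-29a-5p, OO minus OC gave 0.154, 0.109 and 0.306 for miR-29a-3p, miR-29c-3p and miR-29a-5p, and OO minus CC gave -0.00425 for miR-29c-5p. With quality weights, miR-29a-3p was at 0.000129 in OO minus OC, miR-29c-3p at -0.00375 for maternal diet and miR-29b-1-5p at 0.0712 in OO minus CO. Leaving out 1 library at a time gave -0.0533 to 0.0489 for miR-29a-3p in OO minus OC, -0.47 to 0.0369 for miR-29b-3p in CO minus CC, -0.0215 to 0.195 and -0.0347 to 0.176 for miR-29a-3p and miR-29c-3p and maternal diet, -0.323 to 0.154 for miR-29b-1-5p in OO minus CO, -0.0665 to 0.41 for its interaction and -0.00593 to 0.161 for miR-29c-5p in OO minus CC. The ratio tests that passed numbered 0 to 3 in place of 2, and the correlations 1 to 5 in place of 4, with 1 under TMM and 1 under median-of-ratios scaling. The r of miR-29b-3p ran from -0.0499 to 0.904 with miR-29a-3p and from -0.274 to 0.879 with miR-29c-3p, the lowest being without CO replicate 3. The deviation of miR-29b-1-5p in CO replicate 3 was 0.0991 with TMM and 0.0579 with median-of-ratios scaling. The cause of these shifts was not tested. Over all rows the calls ran from 3 to 12 for the sons' diet and from 1 to 10 for CO minus CC. The planned count-model alternative was not run. No paired analysis was possible because the replicate numbers only follow accession order and the labels tie no library to a litter. The number of reads limits the 5p arms, and the recovered depth does not stand for all reads sequenced.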
